A study of Homo sapiens with 9 samples.

Results

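The genes described here are 45 human genes of mitosis and the spindle, taken by gene symbol from the deposited log2 table, which holds 18859 genes. All 45 were found there, and all 45 were among the 15541 genes tested. They were measured by RNA sequencing in ACHN, a human renal carcinoma cell line that grows as an adherent culture, in 9 libraries of 3 groups with 3 libraries each. The groups were 0.1% DMSO (the vehicle), 25 nM piericidin A and 50 nM piericidin A, and piericidin A is a microbial product that blocks complex I of the respiratory chain. The labels leave unsaid whether cells given piericidin A received the vehicle too, and the sources used here do not give how long treatment lasted. The study set out to learn by what mechanism piericidin A acts on renal carcinoma. The labels do not say that the 3 libraries of a group came from separate cultures, so the p-values measure the spread between these libraries, which may be technical.

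Mitosis is driven by CDK1 with its cyclins, and the spindle, a machine of microtubules and motor proteins, then pulls the chromosome copies apart. The spindle checkpoint holds back the anaphase promoting complex, which marks securin and the cyclins for destruction, until every kinetochore is attached. Most genes of this kind are transcribed mainly in G2 and M phase, under FOXM1 and the DREAM and MMB complexes, so their RNA in a bulk culture depends on how many cells are in those phases. In such bulk samples fewer cells in mitosis and less RNA per mitotic cell cannot be told apart.

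Over the 18859 genes of the log2 table, the libraries held 24365472 to 29245674 fragments as recovered from the deposited values. A single member had 395 to 24317 fragments in a library. The renal epithelial and carcinoma markers of the line were all present, with KRT8, a keratin, at 101 to 144 FPKM. FPKM, the authors' unit, is here fragments scaled to gene length and by a factor for each library that evens out the medians over genes. Of the markers of other cell types, the leukocyte markers summed to at most 0.266 FPKM and the endothelial markers to at most 0.0303 FPKM in any library. The fibroblast markers summed to 2.54 to 2.67 FPKM in DMSO, 2.33 to 2.66 FPKM at 25 nM and 3.12 to 4.05 FPKM at 50 nM, mostly COL1A1 at 1.65 to 3.21 FPKM, and their part in the results was not tested. The mitochondrial genome took 2.32% to 2.65% of fragments in DMSO, 3.82% to 5.11% at 25 nM and 5.20% to 6.84% at 50 nM. The third 25 nM library stood apart: a chi-square of its counts per degree of freedom was 17.2 and 19.6 against the other 25 nM libraries, against 2.48 between those, 5.09 to 8.49 within the 50 nM group and 1.79 to 2.5 within the DMSO group. Each leading count below is therefore also given without it.

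At 25 nM most of the mitosis and spindle genes were higher than in DMSO, and at 50 nM most were lower than at 25 nM. A gene was called at a Benjamini-Hochberg adjusted p under 0.05 in limma over all 15541 genes. At 25 nM against DMSO 27 of the 45 rose and 2 fell, 29 in all, where 52.0% of all tested genes were called, 26.3% higher and 25.8% lower. The median log2 fold change of the members was 0.19, and that of all tested genes was 0.02. The deposited values were already scaled so that all libraries shared the same median ratio over genes. That scaling holds the all-gene medians near 0, so they do not show whether genes as a whole shifted. At 50 nM against 25 nM 27 members fell and 2 rose, where 33.5% of all tested genes were called, 18.8% lower and 14.7% higher. The median was -0.22 for the members and -0.01 for all tested genes, and with libraries scaled by fragment totals it was -0.12 for the members, against 0.08 for all tested genes. At 50 nM against DMSO the members were split, with 12 higher and 16 lower, where 60.7% of all tested genes were called, 29.2% higher and 31.5% lower, and with a median of -0.05. Under the other scalings of the libraries this last median was 0.02 or 0.03, so the members as a whole had no fixed direction at 50 nM against DMSO. Of the 11722 tested genes marked as coding, 25.7% were higher and 39.9% lower at 50 nM against DMSO, with a median of -0.09. The coding medians were -0.02 at 25 nM against DMSO and -0.06 at 50 nM against 25 nM.

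Of the 45 members, 20 (44.4%) were higher at 25 nM than in DMSO and also lower at 50 nM than at 25 nM, a pattern held by 5.80% of all tested genes. These comparisons share the 25 nM libraries, and the members were chosen with this pattern in view, so the count is a description. Without the third 25 nM library it was 21, and the counts became 27 higher and 2 lower at 25 nM, 12 higher and 18 lower at 50 nM against DMSO, and 2 higher and 30 lower at 50 nM against 25 nM. Of those 20 genes, 10 ended at 50 nM with no called difference from DMSO (CCNB2, CCNA2, CDC20, CDC25C, AURKA, AURKB, BUB1, MAD2L1, FOXM1 and NEK2). A further 6 ended below DMSO (CDK1, TPX2, DLGAP5, KIF4A, PRC1 and ANLN) and 4 stayed above it (KIF20A, KIF2C, NUSAP1 and BIRC5). Several of these calls at 50 nM against DMSO were lost under some of the 20 alternatives tried, ANLN's under 12, KIF20A's and NUSAP1's under 10 each, KIF2C's and PRC1's under 3 each and CDK1's under 1. Another 6 were higher at both doses with no called difference between the doses (CCNB1, BUB1B, CENPA, NUF2, PTTG1 and UBE2C). CDC25B was called higher in all 3 comparisons. The genes lower at 50 nM in both comparisons, with no call at 25 nM, were BUB3, HMMR, KIF11, TOP2A and ECT2. PLK4, KIF23, CENPE, SPC25 and INCENP were called in no comparison.

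**Figure D1:**
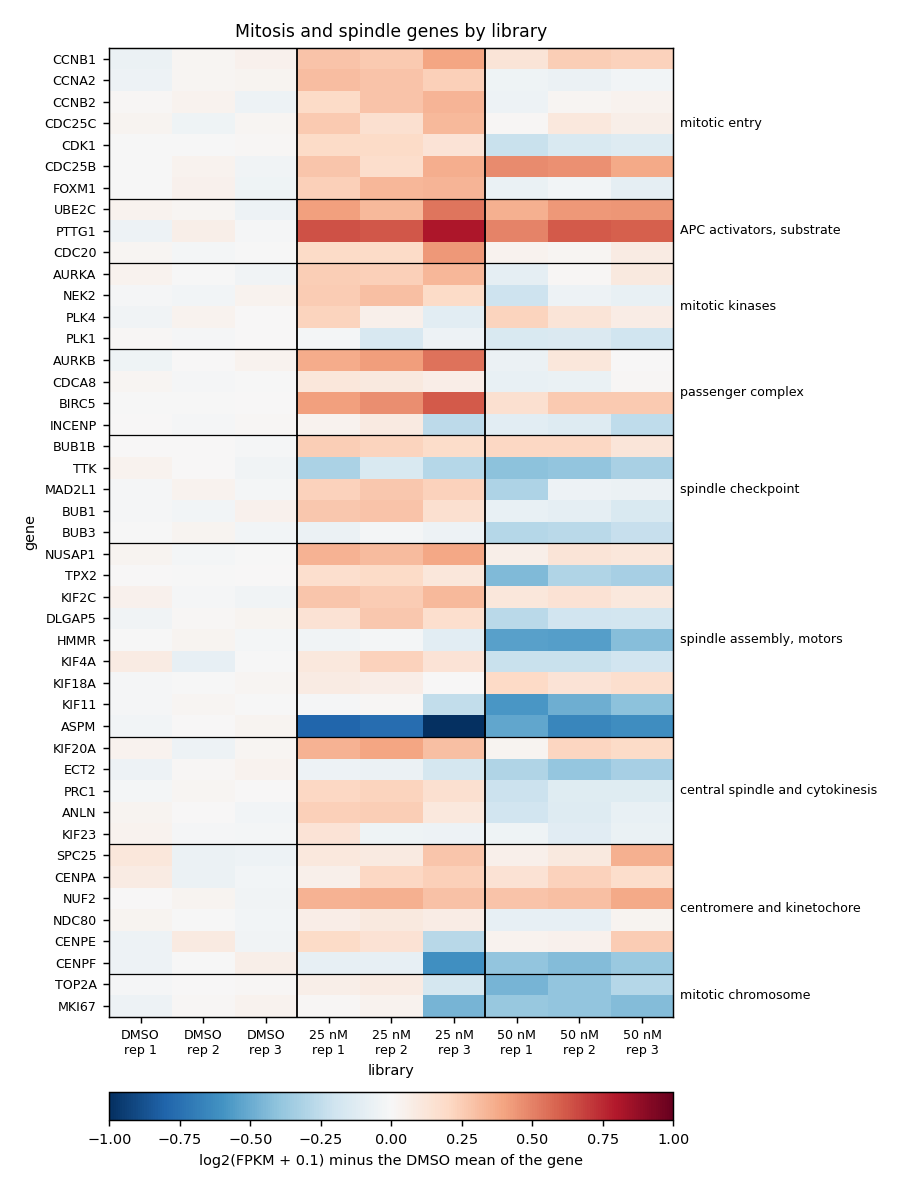
Level of each of the 45 genes in each of the 9 libraries (columns, in dose order), as log2(FPKM + 0.1) minus the mean of the gene in DMSO, in groups by role and within a role from the shortest gene at the top to the longest. Red is above the DMSO mean and blue below it. The 25 nM columns are mostly red, with medians of 0.19, 0.19 and 0.16, and the 50 nM columns are mixed, with medians of -0.07, -0.05 and -0.03. Of the 25 nM columns, CENPF is darkest blue in the third, and MKI67 is blue in the third only. Colours stop at -1 and 1, which ASPM passes in the third 25 nM library.

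The groups' libraries were compared for overlap as well. At 25 nM against DMSO, 28 members had every 25 nM library above every DMSO library and 6 had every one below, where 62.6% of all tested genes did not overlap, 31.5% above and 31.1% below. At 50 nM against 25 nM, 3 members had no overlap above and 30 below, where 45.4% of all tested genes did not overlap, 21.0% above and 24.4% below. At 50 nM against DMSO, 13 lay above and 21 below, where 70.4% did not overlap, 33.9% above and 36.5% below. The summed level of the 45 genes was 1323, 1330 and 1325 FPKM in DMSO, 1511, 1520 and 1487 FPKM at 25 nM and 1239, 1288 and 1303 FPKM at 50 nM, so the libraries did not overlap between groups. Their share of fragments, in which long genes weigh more, was 0.600%, 0.613% and 0.613% in DMSO, 0.657%, 0.659% and 0.592% at 25 nM and 0.568%, 0.574% and 0.577% at 50 nM. On that measure the third 25 nM library lay below the DMSO libraries.

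The genes that switch on mitotic entry rose together at 25 nM, all 7 of 7, by 0.17 to 0.31 on the log2 scale. Of all tested genes 26.3% were higher there. With the length trend of all genes removed all 7 kept the call, with smaller values in CCNB1 (0.19), CCNB2 and CCNA2 (0.17 each) and CDC25C (0.16). FOXM1, the transcription factor that drives many G2 and M phase genes (ENSG00000111206, hg38 chr12:2857681-2877155), stood at 24.5, 25.4 and 23.8 FPKM in DMSO, 29.0, 30.9 and 31.1 FPKM at 25 nM and 23.5, 24.1 and 23.1 FPKM at 50 nM. Its 25 nM libraries were above all others, and the 50 nM and DMSO libraries overlapped. The log2 fold change of FOXM1 was 0.30 ± 0.04 at 25 nM against DMSO (SE, adjusted p = 0.000408) and -0.36 ± 0.04 at 50 nM against 25 nM (adjusted p = 0.00056). Its value at 50 nM against DMSO was -0.06, with a 95% interval of -0.16 to 0.04. FOXM1 overlaps ITFG2 and RHNO1 on the other strand, and whether the counting used strand is not stated. By whole gene span, 18 of the 45 genes overlap another annotated gene, 5 of them on the same strand (ASPM, CENPA, CCNB2, PLK4 and TOP2A). Exons were not compared, so whether reads were shared there is not known.

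CDK1, the kinase that carries cells into mitosis (ENSG00000170312, chr10:60778331-60794852), stood at 43.7, 43.6 and 44.1 FPKM in DMSO, 50.0, 50.1 and 48.1 FPKM at 25 nM and 37.5, 39.5 and 40.1 FPKM at 50 nM. The 3 groups did not overlap, with 25 nM highest and 50 nM lowest. It rose by 0.17 ± 0.04 at 25 nM against DMSO (adjusted p = 0.00424) and differed by -0.17 ± 0.04 at 50 nM against DMSO (adjusted p = 0.00382) and by -0.34 ± 0.04 at 50 nM against 25 nM (adjusted p = 0.00046). The call at 50 nM against DMSO was lost when libraries were scaled over coding genes, with a value of -0.09. CCNB1, the cyclin B1 partner of CDK1 (ENSG00000134057, chr5:69167010-69178245), stood at 35.9, 37.8 and 38.4 FPKM in DMSO, 45.5, 44.8 and 49.2 FPKM at 25 nM and 40.9, 44.2 and 43.8 FPKM at 50 nM. Both doses lay above DMSO without overlap, by 0.31 ± 0.05 at 25 nM (adjusted p = 0.000847) and 0.20 ± 0.05 at 50 nM (adjusted p = 0.00712). Between the doses the CCNB1 libraries did not overlap, but the difference of -0.11 was not called (adjusted p = 0.117).

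CCNB2 and CCNA2, the genes of cyclins B2 and A2, rose by 0.27 and 0.28 at 25 nM against DMSO and fell by 0.27 and 0.32 at 50 nM against 25 nM. CDC25C, a phosphatase that removes the inhibitory phosphates from CDK1, was the lowest of the 45 genes at 5.0 ± 0.135 FPKM in DMSO, 5.97 ± 0.346 FPKM at 25 nM and 5.20 ± 0.168 FPKM at 50 nM (SD, n = 3). Its fall of 0.19 at 50 nM against 25 nM was lost under 7 of the 20 alternatives. Its related phosphatase CDC25B went the other way at the higher dose. CDC25B stood at 23.6, 24.3 and 23.1 FPKM in DMSO, 28.7, 26.8 and 30.5 FPKM at 25 nM and 32.8, 32.6 and 30.9 FPKM at 50 nM, with no overlap between groups. Its log2 fold change was 0.27 at 25 nM against DMSO, 0.44 at 50 nM against DMSO (adjusted p = 9.07e-05) and 0.16 ± 0.05 at 50 nM against 25 nM (adjusted p = 0.0355), and the last call was lost under 11 of the 20 alternatives tried.

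**Figure D2:**
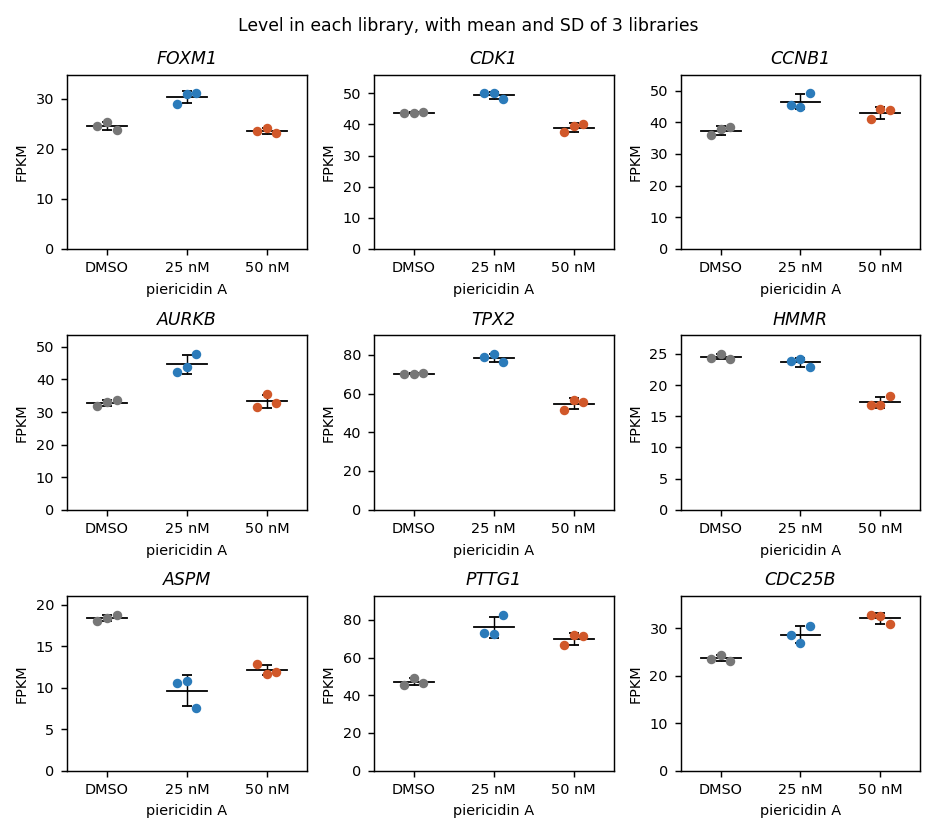
FPKM of 9 of the genes in every library at each dose; points are libraries, the long line is the mean and the bars are the SD of 3 libraries, and each axis starts at 0. FOXM1, CDK1, AURKB and TPX2 are highest at 25 nM, HMMR is lowest at 50 nM, ASPM is below DMSO at both doses, and PTTG1 and CDC25B are above DMSO at both.

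Of the anaphase promoting complex group, all 3 genes rose at 25 nM, where 26.3% of all tested genes were higher. PTTG1, which encodes securin, the inhibitor of the protease that cuts sister chromatids apart (ENSG00000164611, chr5:160421822-160428744), stood at 45.5, 49.1 and 46.6 FPKM in DMSO, 73.1, 72.4 and 82.6 FPKM at 25 nM and 66.4, 72.1 and 71.3 FPKM at 50 nM. Both doses were above DMSO in every library, and the doses did not overlap with each other. The rise of 0.69 ± 0.06 at 25 nM (adjusted p = 3.4e-05) was the largest of the 45 genes, and it was 0.57 ± 0.06 at 50 nM against DMSO (adjusted p = 4.65e-05). PTTG1 has near-identical copies elsewhere in the genome, so its reads may have been split or shared in counting. UBE2C, the ubiquitin-conjugating enzyme that works with the complex, averaged 80.3 ± 5.94 FPKM at 25 nM and 79.4 ± 2.61 FPKM at 50 nM, against 59.8 ± 1.94 FPKM in DMSO, with log2 fold changes of 0.42 and 0.41, which were 0.20 and 0.18 and still called with the length trend removed. CDC20, the activator that the checkpoint holds in check, rose by 0.27 at 25 nM against DMSO (adjusted p = 0.00618) and fell by 0.23 at 50 nM against 25 nM (adjusted p = 0.0241). For CDC20 the rise was 0.10 with the length trend removed (adjusted p = 0.0461), and the second difference was -0.14 without the third 25 nM library, with the call lost under 6 of the 20 alternatives.

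The mitotic kinases differed among themselves. AURKA, which acts at the spindle poles, and NEK2, which splits the centrosomes, rose by 0.27 and 0.25 at 25 nM against DMSO and fell by 0.27 and 0.36 at 50 nM against 25 nM. PLK1, which acts throughout mitosis, was not called at 25 nM (-0.08, 95% interval -0.18 to 0.02) and fell by 0.17 at 50 nM against DMSO, a call lost under both other scalings and with the gene length trend removed. PLK4, which starts centriole copying, was called in no comparison. In the chromosomal passenger complex, which corrects faulty kinetochore attachments, the kinase AURKB stood at 31.8, 32.9 and 33.6 FPKM in DMSO, 42.3, 43.7 and 47.8 FPKM at 25 nM and 31.5, 35.5 and 32.8 FPKM at 50 nM. Its 25 nM libraries were above all others, and the 50 nM and DMSO libraries overlapped. AURKB rose by 0.44 ± 0.06 at 25 nM against DMSO (adjusted p = 0.000302) and differed by -0.42 ± 0.06 at 50 nM against 25 nM (adjusted p = 0.00113). The rise was 0.29 with the length trend removed. BIRC5, which encodes survivin, stood at 35.3, 35.2 and 35.4 FPKM in DMSO, 47.0, 48.7 and 54.1 FPKM at 25 nM and 39.4, 42.2 and 42.3 FPKM at 50 nM, with 3 groups that did not overlap. Its rise of 0.50 ± 0.05 at 25 nM (adjusted p = 0.000115) was the second largest of the 45 genes. CDCA8, the borealin gene, was called at 50 nM against 25 nM (-0.13), a call lost under 9 of the 20 alternatives, and not at 25 nM against DMSO (0.09), where 3 alternatives called it. The scaffold gene INCENP was not called.

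Among the 5 spindle checkpoint genes, the kinase gene BUB1, the gene BUB1B and the inhibitor gene MAD2L1 rose at 25 nM, by 0.24, 0.22 and 0.24. BUB1 and MAD2L1 fell at 50 nM against 25 nM, by 0.34 and 0.38, and BUB1B was not called (-0.04, 95% interval -0.13 to 0.05). TTK, the MPS1 kinase gene at the top of the checkpoint, was lower at both doses than in DMSO. TTK averaged 10.0 ± 0.628 FPKM at 25 nM and 9.15 ± 0.307 FPKM at 50 nM, against 11.9 ± 0.282 FPKM in DMSO, and the differences were -0.25 ± 0.05 (adjusted p = 0.00344) and -0.38 ± 0.05 (adjusted p = 0.000246). BUB3, whose protein recruits BUB1 to kinetochores, fell at 50 nM by 0.26 against DMSO and 0.22 against 25 nM. These BUB3 differences were -0.10 with the length trend removed and -0.12 by fragment totals, both still called, and its uncalled value of -0.04 at 25 nM was 0.12 and called with the length trend removed.

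Spindle assembly factors and motors held the largest falls. At 50 nM 6 of 9 were lower than in DMSO and 7 of 9 lower than at 25 nM. Of all tested genes, 31.5% and 18.8% were lower in these comparisons. TPX2, which starts microtubule growth near chromosomes and activates AURKA (ENSG00000088325, chr20:31739271-31801805), stood at 70.3, 69.9 and 70.5 FPKM in DMSO, 78.8, 80.4 and 76.1 FPKM at 25 nM and 51.7, 56.9 and 55.6 FPKM at 50 nM, with no overlap between groups. Its fall of 0.52 ± 0.04 at 50 nM against 25 nM (adjusted p = 0.000213) was the largest of the 45 genes in that comparison. Against DMSO, TPX2 differed by 0.16 ± 0.04 at 25 nM (adjusted p = 0.0128) and by -0.36 ± 0.04 at 50 nM (adjusted p = 0.000106), and the call at 25 nM was lost with the length trend removed (0.11). HMMR, a spindle and centrosome protein gene (ENSG00000072571, chr5:163460203-163491945), stood at 24.4, 25.0 and 24.2 FPKM in DMSO, 23.9, 24.2 and 22.9 FPKM at 25 nM and 16.8, 16.7 and 18.3 FPKM at 50 nM. The 50 nM libraries lay far below the others, by -0.51 ± 0.04 against DMSO (adjusted p = 1.71e-05) and -0.45 ± 0.04 against 25 nM (adjusted p = 0.000306), and 25 nM against DMSO was not called (-0.05, 95% interval -0.16 to 0.05). KIF11, the kinesin gene whose motor pushes the spindle poles apart, followed HMMR, with -0.49 ± 0.07 at 50 nM against DMSO and -0.08 at 25 nM.

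ASPM, which organises the spindle poles (ENSG00000066279, chr1:197084128-197146694), had the largest fall of the 45 genes at 25 nM. It stood at 18.1, 18.4 and 18.8 FPKM in DMSO, 10.6, 10.8 and 7.49 FPKM at 25 nM and 12.8, 11.7 and 11.9 FPKM at 50 nM, so both doses were below DMSO in every library and 25 nM was lowest. The differences from DMSO were -0.95 ± 0.12 at 25 nM (adjusted p = 0.000271) and -0.60 ± 0.12 at 50 nM (adjusted p = 0.00243). Without the third 25 nM library the first was -0.78, and with the length trend removed the second was -0.38. ASPM ran against the members' pattern between the doses as well: at 50 nM against 25 nM it was 0.35 ± 0.12, not called (adjusted p = 0.0542, and 0.0109 to 0.157 over the alternatives), and 0.18 without the third 25 nM library. ASPM overlaps the pseudogene SEPT14P12 on its own strand. NUSAP1 and KIF2C, genes of a microtubule bundler and of a kinesin that takes microtubules apart, rose by 0.35 and 0.28 at 25 nM and were above DMSO at 50 nM by 0.10 and 0.12, calls lost under 10 and 3 of the 20 alternatives, and for KIF2C without 50 nM replicate 2, DMSO replicate 2 or DMSO replicate 3. DLGAP5 and KIF4A, whose proteins stabilise kinetochore fibres and limit the length of central spindle microtubules, rose by 0.19 and 0.16 at 25 nM and were below DMSO at 50 nM by -0.21 each; KIF4A has a near-identical copy in the genome, KIF4B, and overlaps PDZD11 on the other strand. The KIF4A call at 25 nM was lost under 7 of the 20 alternatives, and scaled over coding genes both genes were at -0.13 at 50 nM against DMSO, still called. KIF18A, a kinesin that damps chromosome movement, rose by 0.17 at 50 nM against DMSO (adjusted p = 0.00448) and by 0.12 against 25 nM (adjusted p = 0.0433), and the second call was lost under 15 of the 20 alternatives.

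Of the central spindle and cytokinesis genes, KIF20A, PRC1 and ANLN rose at 25 nM, by 0.35, 0.19 and 0.19. All 3 fell at 50 nM against 25 nM, by 0.20, 0.35 and 0.33, and so did ECT2, by 0.25. The fall was lost under 7 of the 20 alternatives for KIF20A, and for ECT2 when scaled by fragment totals (-0.15). ECT2 activates the contractile ring, where ANLN is a scaffold, and PRC1 bundles the central spindle. The centromere and kinetochore genes had the smallest share of calls between the doses of all the roles. Of these 6, 1 was lower at 50 nM than at 25 nM (NDC80, -0.13), and that call was lost under 16 of the 20 alternatives. That is 16.7%, near the 18.8% of all tested genes called lower there. NUF2, the partner of NDC80 at the microtubule contact, averaged 22.5 ± 0.547 FPKM at 25 nM and 22.3 ± 0.814 FPKM at 50 nM, against 17.8 ± 0.383 FPKM in DMSO, a rise of 0.33 and 0.32. CENPA, the centromeric histone gene, rose by 0.17 and 0.18, and these calls were lost under 13 and 5 of the 20 alternatives. TOP2A, the topoisomerase that untangles chromosomes, was the highest of the 45 genes per length, at 129 ± 1.21 FPKM in DMSO, 128 ± 12.4 FPKM at 25 nM and 98.9 ± 6.39 FPKM at 50 nM. It fell by 0.38 at 50 nM against DMSO, with a value of -0.25 with the length trend removed, and by 0.37 against 25 nM. The proliferation marker MKI67 fell by 0.40 at 50 nM against DMSO, a call lost with the gene length trend removed (-0.16).

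**Figure D3:**
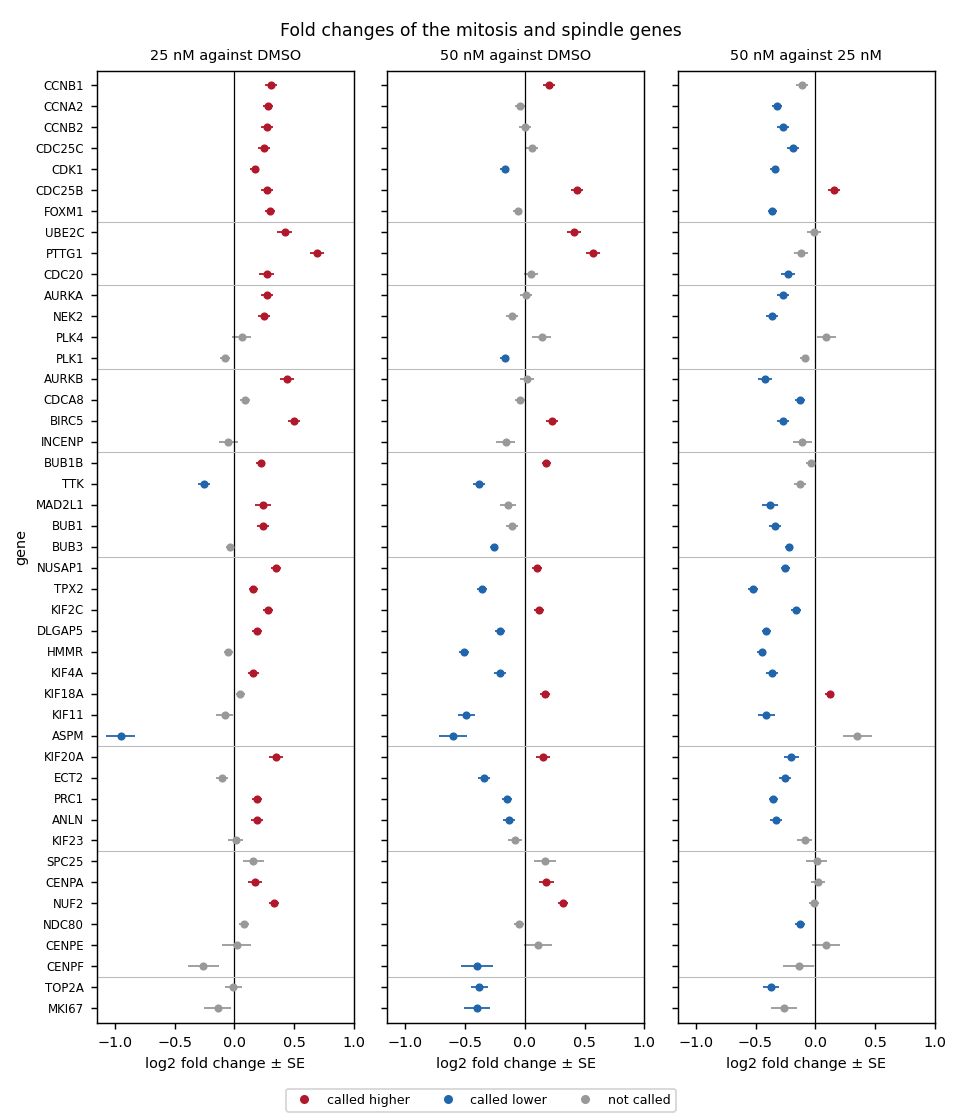
Log2 fold change with its standard error for each of the 45 genes in the 3 comparisons, in groups by role; red is called higher, blue called lower and grey not called. In the 25 nM panel 27 points are red and 2 blue, TTK and ASPM, and in the panel of 50 nM against 25 nM 27 are blue and 2 red, CDC25B and KIF18A.

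Promoters were read because many of these genes share control elements, the cell cycle genes homology region (CHR) and the CCAAT box, which DREAM, MMB and NF-Y are known to bind. RefSeq promoters of GRCh38.p14, 250 bases before to 50 after the gene start, were found by symbol for 38 of the 45 genes; AURKA, BUB3, TTK, TPX2, BIRC5, UBE2C and FOXM1 are named only. Shown are those of the 6 genes with the largest falls at 50 nM against 25 nM, of which TPX2 was not matched: HMMR (chr5:163460382-163460681, plus strand), AURKB (chr17:8210176-8210475, minus strand), DLGAP5 (chr14:55191536-55191835, minus strand), KIF11 (chr10:92592880-92593179, plus strand) and MAD2L1 (chr4:120066799-120067098, minus strand). For comparison, ASPM (chr1:197146620-197146919, minus strand) and CDC25B (chr20:3786701-3787000, plus strand) had the highest values in that comparison. They run 5′ to 3′ along the gene, and capitals mark the CHR letters TTTGAA or TTCGAA and the CCAAT letters on either strand.
HMMR: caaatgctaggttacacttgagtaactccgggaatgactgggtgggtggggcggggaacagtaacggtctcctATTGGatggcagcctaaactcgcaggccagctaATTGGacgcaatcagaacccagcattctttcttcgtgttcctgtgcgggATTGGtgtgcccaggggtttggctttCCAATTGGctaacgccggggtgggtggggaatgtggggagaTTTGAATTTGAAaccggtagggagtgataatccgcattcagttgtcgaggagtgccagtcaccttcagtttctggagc
AURKB: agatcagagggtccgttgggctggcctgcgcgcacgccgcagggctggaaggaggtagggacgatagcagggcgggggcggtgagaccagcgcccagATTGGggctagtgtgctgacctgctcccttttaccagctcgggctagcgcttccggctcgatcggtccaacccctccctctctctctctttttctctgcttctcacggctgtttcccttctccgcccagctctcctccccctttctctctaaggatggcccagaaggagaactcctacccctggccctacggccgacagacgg
DLGAP5: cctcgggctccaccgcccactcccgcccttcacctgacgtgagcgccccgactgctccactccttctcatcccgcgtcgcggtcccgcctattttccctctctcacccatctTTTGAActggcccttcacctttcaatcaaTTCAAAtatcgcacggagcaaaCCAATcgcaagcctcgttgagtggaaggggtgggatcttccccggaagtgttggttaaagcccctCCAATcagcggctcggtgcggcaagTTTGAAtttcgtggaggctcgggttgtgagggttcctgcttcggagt
KIF11: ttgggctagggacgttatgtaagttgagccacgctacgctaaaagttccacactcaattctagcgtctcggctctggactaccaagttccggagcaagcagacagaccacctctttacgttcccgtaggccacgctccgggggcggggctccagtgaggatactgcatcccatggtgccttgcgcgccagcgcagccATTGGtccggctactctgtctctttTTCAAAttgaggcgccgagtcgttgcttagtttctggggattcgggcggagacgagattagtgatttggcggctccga
MAD2L1: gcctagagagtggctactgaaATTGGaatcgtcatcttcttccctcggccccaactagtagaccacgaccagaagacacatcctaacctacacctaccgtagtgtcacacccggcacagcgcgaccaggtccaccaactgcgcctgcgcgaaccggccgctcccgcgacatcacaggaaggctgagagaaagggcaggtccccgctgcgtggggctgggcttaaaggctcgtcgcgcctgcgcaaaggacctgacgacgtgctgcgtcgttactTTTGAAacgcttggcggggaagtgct
ASPM: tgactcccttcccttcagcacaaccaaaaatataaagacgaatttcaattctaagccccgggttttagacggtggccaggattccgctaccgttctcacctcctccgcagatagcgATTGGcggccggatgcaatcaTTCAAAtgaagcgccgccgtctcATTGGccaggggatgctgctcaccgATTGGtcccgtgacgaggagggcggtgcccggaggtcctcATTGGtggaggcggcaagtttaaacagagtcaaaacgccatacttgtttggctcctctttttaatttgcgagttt
CDC25B: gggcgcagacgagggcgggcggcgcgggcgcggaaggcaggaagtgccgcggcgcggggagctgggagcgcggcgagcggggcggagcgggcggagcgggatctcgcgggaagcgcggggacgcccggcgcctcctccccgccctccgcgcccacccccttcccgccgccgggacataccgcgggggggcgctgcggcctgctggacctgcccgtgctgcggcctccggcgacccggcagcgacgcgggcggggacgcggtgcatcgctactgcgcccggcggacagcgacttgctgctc
Positions count from the RefSeq start used for the window, which is not always the start in the deposited coordinates. The deposited starts of HMMR (163460203), KIF11 (92593286), PLK1, NUF2 and CENPA, among others, lie outside their windows. HMMR holds a pair of CHR matches in tandem at -28 and -22 from the RefSeq start and 5 CCAAT matches, the last 2 overlapping on opposite strands. KIF11 holds a CHR match at -28 and a CCAAT match at -53, and DLGAP5 holds 3 CHR and 2 CCAAT matches. MAD2L1 holds a CHR match at 25, after the gene start, and ASPM, whose level fell at both doses, holds a CHR match at -113 and 4 CCAAT matches. AURKB holds a CCAAT match at -153 and no CHR match in this window, and CDC25B holds neither. The deposited AURKB gene begins at 8210600, outside its window, so a CHR match near that start would have been missed.

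A CHR match was present in 28 of the 38 promoters, 73.7%, against 16.6% of all 27305 promoters of that length, and a CCAAT match in 29, 76.3%, against 35.7%. The 27305 promoters were not limited to coding genes or to genes tested here. Both were present in 23, 60.5%, against 6.58%. A match to the E2F letters TTGGCGC or TTCCCGC, on either strand, was present in 8, 21.1%, against 9.33%. A TTGG inside the E2F letters can overlap an ATTGG match. Of the 28 genes with a CHR match 13 rose and 1 fell at 25 nM, and of the 10 without one 9 rose and 0 fell, where 28.0% of coding genes were higher and 31.6% lower. At 50 nM against DMSO 5 of the 28 were higher and 13 lower, and 5 of the 10 were higher and 0 lower, where 25.7% of coding genes were higher and 39.9% lower. Between the doses 1 of the 28 was higher and 16 lower at 50 nM, and 1 of the 10 was higher and 6 lower, where 13.2% of coding genes were higher and 24.3% lower. The shares given for coding genes cover the 11722 coding genes tested that are in the log2 table, with or without a match. Tested genes outside that table had no gene type and were left out. The genes with a match were also longer, with a median length of 4508 bases against 3071 bases, and the part of length in the split was not tested. A match is a string of letters and not a tested binding site. AURKB is among the 10 genes without a CHR match, and a gene without one may hold it outside the window read.

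Gene length was correlated with the fold changes against DMSO and less with the difference between doses. Over the 45 genes the Spearman correlation of annotated length with log2 fold change was -0.63 at 25 nM against DMSO, -0.60 at 50 nM against DMSO and -0.06 at 50 nM against 25 nM. Over 11722 coding genes it was -0.37, -0.25 and 0.15. These are correlations across genes of the same libraries, and genes are not independent replicates. Those with 25 nM include the third 25 nM library and were not computed without it. That library differed by length from the other 25 nM libraries too (Spearman -0.72 over the 45 genes). Whether length goes with the drug or with single libraries was not tested. Of the 15 shortest members, 1286 to 3362 bases long, 13 rose and 0 fell at 25 nM, where 43.8% of coding genes of that length were higher and 14.3% lower. Of the 15 longest, 4760 to 12807 bases, 5 rose and 1 fell at 25 nM, where 19.5% of coding genes of that length were higher and 41.2% lower. The shortest 15 had 6 higher and 0 lower at 50 nM against DMSO, where 33.9% of coding genes of that length were higher and 24.8% lower. The longest 15 had 0 higher and 10 lower there, where the shares were 21.3% and 48.5%. Between the doses 9 of 15 fell among the shortest, the middle and the longest genes alike, where 27.0%, 30.1% and 22.6% of coding genes of those lengths were lower. With the length trend of all genes removed from each library, 26 members were higher at 25 nM and 24 were lower at 50 nM than at 25 nM, and the members with both calls numbered 18.

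**Figure D4:**
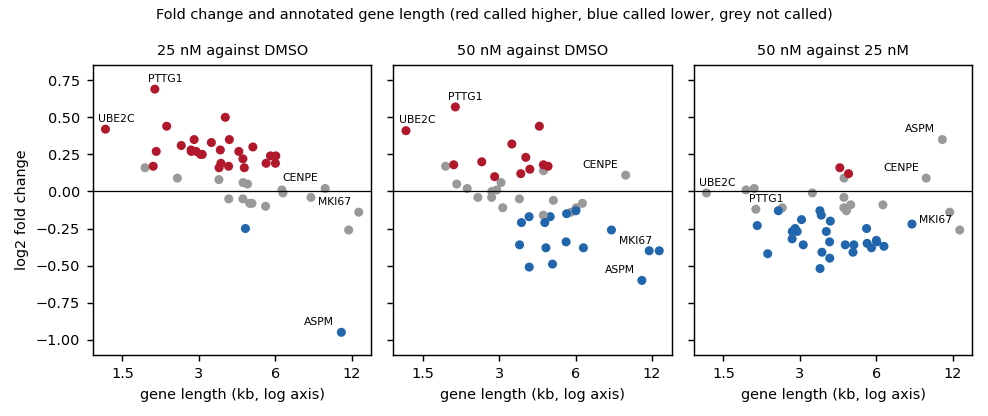
Log2 fold change of each of the 45 genes against its annotated length in kilobases on a log axis, in the 3 comparisons; red is called higher, blue called lower and grey not called. Points run downwards with length against DMSO (Spearman -0.63 at 25 nM and -0.60 at 50 nM) and show no such slope at 50 nM against 25 nM (-0.06).

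The third 25 nM library also differed from its group by gene length. Its log2 difference from the other 25 nM libraries had a Spearman correlation with length of -0.72 over the 45 genes and -0.53 over 11722 coding genes. CENPF, a kinetochore and nuclear matrix protein gene, stood at 35.8, 37.1 and 38.7 FPKM in DMSO, 35.2, 35.0 and 24.2 FPKM at 25 nM and 28.2, 27.6 and 28.7 FPKM at 50 nM. MKI67 stood at 30.8, 32.2 and 32.8 FPKM in DMSO, 32.2, 32.6 and 23.1 FPKM at 25 nM and 24.6, 24.2 and 23.6 FPKM at 50 nM. The third 25 nM library was the low one of its group in both genes and lay below the 50 nM libraries. Neither was called at 50 nM against 25 nM with all libraries (-0.14 and -0.26). Without the third 25 nM library CENPF was -0.32 (adjusted p = 0.00055) and MKI67 -0.42 (adjusted p = 0.000185), both called lower. INCENP became -0.22 there (adjusted p = 0.00715) and was also called lower at 50 nM against DMSO (-0.16, adjusted p = 0.00979).

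Other genes of the same machinery were counted from lists of each complex. The counts of every list here and below stand against the shares of all tested genes. These were 26.3% higher and 25.8% lower at 25 nM, and 29.2% and 31.5% at 50 nM against DMSO. At 50 nM against 25 nM they were 14.7% and 18.8%. The tubulins, the building blocks of the spindle's microtubules, had the lowest medians of the 10 lists: 9 of 10 listed were tested, and 6 were lower and 0 higher at 25 nM, and 9 were lower and 0 higher at 50 nM, against DMSO and also against 25 nM. Their medians were -0.43, -0.79 and -0.43. TUBA1A, an alpha tubulin gene, averaged 22.8 ± 0.914 FPKM at 25 nM and 16.6 ± 0.227 FPKM at 50 nM, against 54.0 ± 1.51 FPKM in DMSO, and its log2 fold changes were -1.24 ± 0.04 and -1.69 ± 0.04 (adjusted p = 3.94e-07 and 1.02e-07). TUBB4B, a beta tubulin gene, averaged 68.3 ± 2.92 FPKM at 25 nM and 49.8 ± 1.26 FPKM at 50 nM, against 161 ± 2.70 FPKM in DMSO, with the same log2 fold changes to 2 decimals. The tubulin genes are close copies of each other, so how reads were shared among them bears on single genes. TUBA1B, TUBB and TUBB2A were the genes not called at 25 nM, chosen here after their values were seen. With libraries scaled over coding genes 1 tubulin was called higher at 25 nM.

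Cohesin, condensin and separase, which hold, fold and release the chromosome copies, had 5 of 21 higher and 9 lower at 25 nM, 2 higher and 13 lower at 50 nM against DMSO, and 0 higher and 11 lower at 50 nM against 25 nM. At 25 nM this split turned to 8 higher and 4 lower with the length trend removed, and to 7 and 6 without the third 25 nM library. STAG2, a cohesin subunit gene, averaged 11.4 ± 1.51 FPKM at 25 nM against 17.3 ± 0.129 FPKM in DMSO, a difference of -0.61, and NCAPD2, a condensin subunit gene, averaged 62.0 ± 2.17 FPKM at 50 nM against 82.3 ± 0.510 FPKM in DMSO, a difference of -0.41. The anaphase promoting complex had 10 of 17 higher and 3 lower at 25 nM, 7 and 4 at 50 nM against DMSO, and 2 and 2 between the doses. Between the doses that was 11.8% each way, below the shares of all tested genes. Its subunit genes ANAPC7 and ANAPC2 were 0.79 and 0.73 higher at 50 nM than in DMSO, and FBXO5, which encodes an inhibitor of the complex, differed by -0.58 there.

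Centromere and kinetochore genes outside the 45 had 13 of 26 higher and 4 lower at 25 nM, 6 and 6 at 50 nM against DMSO, and 2 and 10 at 50 nM against 25 nM. CENPT, which links the centromere to the outer kinetochore, averaged 6.61 ± 0.757 FPKM at 25 nM and 8.64 ± 0.151 FPKM at 50 nM, against 3.13 ± 0.200 FPKM in DMSO, with log2 fold changes of 1.05 and 1.44. These were the highest values of its list, whose medians were 0.18 and 0.05. Checkpoint genes outside the 45 had 5 of 8 higher and 1 lower at 25 nM, 4 and 2 at 50 nM against DMSO, and 0 and 4 between the doses. TRIP13, which takes the checkpoint complex apart, averaged 13.7 ± 0.355 FPKM at 25 nM and 11.1 ± 0.351 FPKM at 50 nM, against 7.98 ± 0.130 FPKM in DMSO. Other mitotic kinesins had 2 of 7 higher and 0 lower at 25 nM, 2 and 2 at 50 nM against DMSO, and 1 and 1 between the doses. At 50 nM against DMSO that was 28.6% each way, near the shares of all tested genes. KIF18B, the close relative of KIF18A, averaged 24.5 ± 1.32 FPKM at 50 nM against 17.9 ± 0.631 FPKM at 25 nM, a rise of 0.45. That was the highest value of its list, whose median was -0.11. The centrosome and centriole genes were mixed, with 6 of 19 higher and 5 lower at 25 nM, 6 and 6 at 50 nM against DMSO and 3 and 7 between the doses. Against DMSO these were 31.6% and 26.3% at 25 nM and 31.6% each way at 50 nM, near the shares of all tested genes.

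Other genes that control mitotic entry and exit had 7 of 15 higher and 2 lower at 25 nM, 4 and 3 at 50 nM against DMSO, and 1 and 7 at 50 nM against 25 nM. CKS1B, whose small protein binds CDK1, averaged 53.6 ± 1.26 FPKM at 50 nM against 73.6 ± 3.69 FPKM at 25 nM, a difference of -0.46. RACGAP1, the central spindle partner of ECT2 and KIF23, averaged 31.7 ± 1.13 FPKM at 50 nM against 43.5 ± 0.507 FPKM in DMSO, a difference of -0.46. The DREAM and MMB complexes, which repress and activate these genes, had 5 of 11 higher and 2 lower at 25 nM, 2 and 4 at 50 nM against DMSO, and 0 and 6 between the doses. MYBL2, the activator gene of MMB, averaged 22.0 ± 1.32 FPKM at 50 nM against 28.1 ± 1.64 FPKM at 25 nM, a difference of -0.35. G1 cyclins and CDK inhibitors had 2 of 14 higher and 5 lower at 25 nM, 3 and 8 at 50 nM against DMSO, and 1 and 5 between the doses. CDKN1A, the p21 inhibitor gene, averaged 216 ± 7.98 FPKM at 25 nM and 207 ± 5.44 FPKM at 50 nM, against 181 ± 5.35 FPKM in DMSO, a rise of 0.25 and 0.19. CDKN1A ran against most called genes of its list, whose medians were -0.05 at 25 nM and -0.19 at 50 nM against DMSO.

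**Figure D5:**
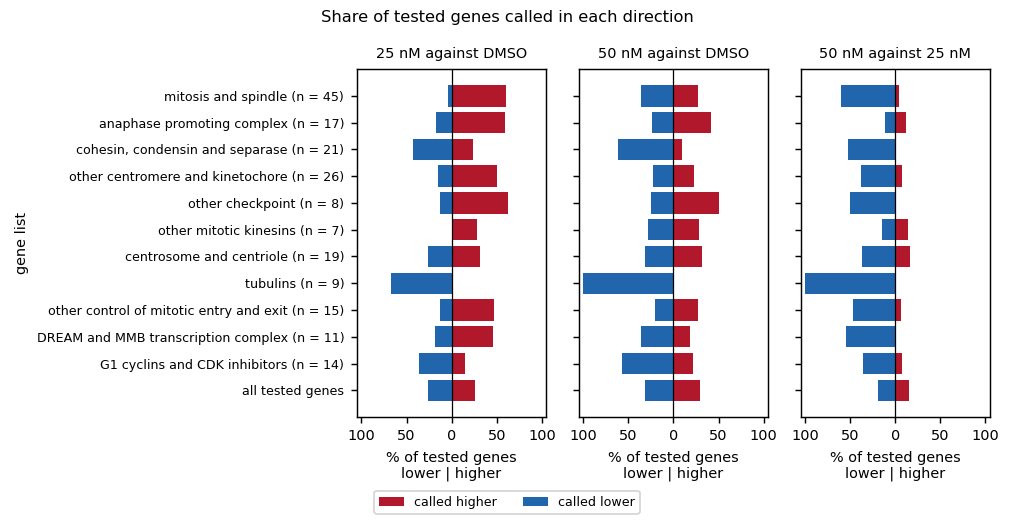
Share of tested genes called higher (red, to the right of 0) and lower (blue, to the left) in percent, for the 45 mitosis and spindle genes, 10 lists of related genes and all 15541 tested genes, in the 3 comparisons. Tubulins are lower at both doses, with 66.7% at 25 nM and 100% at 50 nM, and the 45 genes have 60.0% higher at 25 nM and 60.0% lower at 50 nM against 25 nM.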

How the data were processed

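RNA of 9 ACHN libraries was sequenced on an Illumina HiSeq instrument, per the labels. The authors deposited a table of FPKM values for 30673 genes and a table of log2 FPKM for the 18859 genes above 0 in all 9 libraries. Gene lengths in bases and hg38 coordinates were read from the log2 table, and the build is given in the submitters' processing notes. The log2 values equalled the log2 of the deposited FPKM to within 0.005. For the aligner, counter, annotation release, RNA selection and strandedness, nothing is given in the sources used here. For the 18859 genes of the log2 table, the FPKM values gave back whole fragments for 100.0% of genes in every library, to a tolerance of 0.01. Depth was recovered over those genes only. Their sums ran from 249274 to 310119 by library. The median ratio of a library's values to the genes' geometric means was 1.00413 in all 9 libraries. The deposited values were thus already scaled to equal medians, and not to library size alone. All columns of per-sample values were used.

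FPKM was tested as log2(FPKM + 0.1) for the 15541 genes at 0.5 FPKM or more in at least 3 libraries, with limma 3.58.1 in R 4.3.3 (empirical Bayes with trend and robust options), with group as the only term over all 9 libraries and Benjamini-Hochberg adjustment over all genes. Fold changes are on this scale and understate those of low genes. The pipeline was tested on simulated data. Other work used Python 3.11.15, numpy 2.4.6, pandas 2.3.3, scipy 1.17.1 and matplotlib 3.10.9.

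The members and lists were chosen with earlier results of these data known. Values by library are given for members called with an absolute log2 fold change of at least 0.5 in any comparison, and for FOXM1, CDK1 and CCNB1; BIRC5, AURKB, CDC25B, CENPF and MKI67 were added, and the other members given with values were picked, after their values were seen. Of each list, up to 2 genes with the smallest p in each direction and comparison could be named. Promoters shown are those of the 6 members with the largest fall at 50 nM against 25 nM and the 2 with the highest value there, where matched. Alternatives changed the pseudocount, filter, scaling, length trend, model, block and each left-out library. Promoters are from RefSeq, GRCh38.p14.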

Additional observations from a re-analysis of the deposited data

How the results depend on the processing

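Over the 20 alternatives, 24 of the 27 genes higher at 25 nM than in DMSO and both lower genes kept their call, as did 8 of 12 higher and 10 of 16 lower at 50 nM against DMSO, and 20 of 27 lower at 50 nM against 25 nM. Neither gene higher at 50 nM than at 25 nM did: that count was 0 with no filter on low values, without the trend and robust options, with only the 2 groups compared and with the replicate block, and 0 to 2 when each library was left out, against 2. The number of genes changed between the doses was 3441 to 5829 when each library was left out, lowest without 50 nM replicate 1, against 5205. CENPA at 25 nM against DMSO was -0.01 with the gene length trend removed (limma adjusted p = 0.886), and the cause was not tested. The count with both calls was 15 to 21, lowest when scaled by fragment totals. Scaling moved splits of calls: all genes at 50 nM against 25 nM were 2288 higher and 2917 lower, but 3153 and 1358 by fragment totals and 2715 and 1990 over coding genes; at 50 nM against DMSO 4540 and 4901, but 5295 and 4109, and 5398 and 4033. The members at 50 nM against DMSO were 12 higher and 16 lower, but 13 and 12 by fragment totals, 15 and 11 over coding genes, and 12 and 11 with the length trend removed. Replicate numbers did not pair the libraries (correlations of same-numbered deviations -0.0469 to 0.0793); the block gave 27, 25 and 25 members changed, against 29, 28 and 29, and 7640, 9107 and 4587 genes. Groups of 3 libraries, unknown treatment length and strandedness, and 25 nM replicate 3, which differs from its group by gene length, limit the precision. Counting error alone gives a standard error of at most 0.058 on the log2 scale for a member's difference; for CDC25C, the member with the fewest fragments, it is as large as the fitted error of 0.05, so that gene's small differences are limited by depth. With the length trend removed 10 of 29, 11 of 28 and 5 of 29 called member values moved by over 1.5 times at 25 nM and 50 nM against DMSO and at 50 nM against 25 nM, and by fragment totals 0, 6 and 14 did.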
